A study of Mus musculus with 16 samples.

Results

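The genes described here encode actins and the proteins that bind, bundle or anchor actin filaments, and each is known as a target of serum response factor (SRF). They are Actb, Actg1, Acta2, Tagln, Cnn1, Cnn2, Myl9, Tpm1, Vcl and Flna, 10 genes picked by symbol from the 55367 in the count files. The rule itself uses no measured value, but earlier results of these data were known when the genes were chosen. RNA-seq was done in mIMCD3 cells, a mouse epithelial line that stems from the collecting duct of the inner medulla. WT cells received either DMSO, the solvent, or 10 µM sulforaphane (SFN), a small molecule that activates the transcription factor Nrf2, in a pretreatment of 5 h. They were then kept isosmotic or moved to hyperosmotic medium of 600 mOsm for 1 h or 6 h, which gives 6 WT groups. Nrf2-/- cells, in which Nfe2l2 had been targeted with CRISPR/Cas9 from a lentivirus, followed by antibiotic selection, were pretreated with SFN and either kept isosmotic or stressed for 1 h. Nrf2-/- cells with DMSO or at 6 h were not analysed here, so every comparison of genotypes is between SFN-treated cells. Whether the Nrf2-/- line is 1 clone is not given in the sources used here, so the knockout cannot be told apart from other differences between the lines.

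SRF binds a DNA element called the CArG box, and 2 families of partner proteins direct it. Myocardin-related transcription factors (MRTFs) are held in the cytoplasm by monomeric actin and enter the nucleus when actin polymerises, so that the actin genes are part of a feedback loop. Ternary complex factors (TCFs, the Elk proteins) respond to MAP kinases instead and act with SRF on immediate early genes. Actb and Actg1 encode the beta and gamma actins of non-muscle cells, whereas Acta2, Tagln, Cnn1 and Myl9 are best known from smooth muscle and myofibroblasts. Cells of the inner medulla shrink in hyperosmotic medium, and remodelling of the actin cortex is a known part of their response.

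Each group had 2 libraries, described as biological replicates, and total counts were between 34484296 and 50774875 per library. Nfe2l2 was at 63.9 to 149 CPM (counts normalised to library size) in the 12 WT libraries and at 11.6 CPM or less in each of the 4 Nrf2-/- libraries. The 2 libraries of a group differed least in WT cells at 1 h and most in Nrf2-/- cells at 1 h, where the biological coefficient of variation was 0.348 against 0.0393 to 0.128 in the other 7 groups. The difference between the Nrf2-/- 1 h libraries also followed gene length, by 0.24 on the log2 scale for each doubling, against -0.08 to 0.08 in the other groups. Of 7 epithelial markers, all had counts in every group, and Krt8 alone was at 692 to 1052 CPM in group means. Among the 7 collecting duct markers, Avpr2 and Aqp2, the vasopressin-regulated water channel, had no counts in either isosmotic WT group. Aqp2 had at most 11 counts in any library, while Pax2 was at 119 and 120 CPM in isosmotic DMSO cells. In DMSO cells stressed for 6 h, edgeR called Pax2 (9.72-fold) and Hoxb7 higher and Gata3 lower, of the 6 tested. Over all genes 30.5% were higher and 27.1% lower. Of 11 markers of smooth muscle and fibroblasts, 5 were at 0 in both isosmotic WT groups, Pdgfrb, Col1a2, Col3a1, Dcn and Thy1. All 11 together still summed to 450 and 485 CPM in isosmotic DMSO cells. After 6 h of stress with DMSO, edgeR called 3 of the 7 tested higher and 0 lower, against 30.5% and 27.1% of all genes. The 3 were Pdgfrb, Myh11 (log2 fold change 5.24) and Col1a1 (1.13). Pdgfrb was at 0 before stress, so its fitted log2 fold change of 7.10, with a standard error of 1.51, has no measured base.

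The CArG box, CC followed by 6 bases that are A or T and then GG, was searched for in the promoters of the genes, from 250 bases before to 50 bases after each start site. RefSeq promoters on GRCm38.p6 were at hand for 8 of the 10 genes, all but Actb and Tagln. The box was present in 4 of those 8, against 1.63% of all 32851 promoters. They are shown because they are the elements through which SRF is known to act, with up to 25 bases on each side, on the strand of the gene and with the box in capitals. The position of its first base is counted from the start site.
Actg1, chr11:120348551-120348610, minus strand, box at -90: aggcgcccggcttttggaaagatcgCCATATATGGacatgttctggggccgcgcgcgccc
Cnn2, chr10:79988519-79988578, plus strand, box at -56: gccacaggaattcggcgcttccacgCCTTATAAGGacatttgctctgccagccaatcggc
Myl9, chr2:156775278-156775337, plus strand, box at -161: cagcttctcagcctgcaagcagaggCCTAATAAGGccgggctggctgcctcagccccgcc
Vcl, chr14:20929148-20929205, plus strand, box at -227: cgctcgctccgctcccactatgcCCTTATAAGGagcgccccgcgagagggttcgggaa
Cnn2 and Vcl carry the same 10 letters. The other 4 windows hold no complete box, which says only that these letters are not in them. With 1 mismatch allowed, a choice made after the windows had been read, 7 of 8 windows held a box, all but that of Cnn1, against 21.1% of all promoters. The Acta2 window held 2 such matches, at -84 and at -34. They are shown since Acta2 had the largest called fold change of the 10 when SFN was given to isosmotic cells, again with the matched letters in capitals.
Acta2, chr19:34255423-34255482, minus strand, match at -84: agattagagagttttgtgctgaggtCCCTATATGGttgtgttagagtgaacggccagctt
Acta2, chr19:34255374-34255432, minus strand, match at -34: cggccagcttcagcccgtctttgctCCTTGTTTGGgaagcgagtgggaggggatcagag
The core of the antioxidant response element bound by Nrf2, TGACNNNGC on either strand, was in none of the 8 windows and in 12.4% of all promoters. The core of the tonicity element bound by NFAT5, TGGAAA on either strand, was in the windows of Actg1, Cnn1 and Tpm1 and in 21.4% of all promoters.

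The genes differed widely in level. Per kilobase of exon, Actb averaged 1171 CPM in WT cells and Actg1 909 CPM, and they ranked 16 and 22 of 32792 genes with counts and a known length. Flna, the filamin that cross-links actin into networks, averaged 164 CPM per kilobase, Cnn2, the calponin of non-muscle cells, 105, Tpm1, a tropomyosin that lies along the filament, 92.8, and Vcl, the vinculin of focal adhesions, 35.4. The smooth muscle actin Acta2 was far lower, at 5.13 CPM per kilobase, the regulatory myosin light chain Myl9 was at 1.07, and Tagln and Cnn1 were lowest, at 0.147 and 0.119. On GRCm38, Actb lies at chr5:142903115-142906754, Actg1 at chr11:120345690-120348542, Acta2 at chr19:34241090-34255590, Cnn2 at chr10:79988584-79996062, Myl9 at chr2:156775420-156781658 and Flna at chrX:74223461-74249820.

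Tagln (transgelin) and Cnn1 (basic calponin), both actin-binding proteins, were close to the limit of detection, with 0 to 21 and 0 to 22 counts per library. Neither passed the test in any of the 15 comparisons, but single libraries could make a call. Without the first stressed Nrf2-/- library, which leaves a library with 0 counts of both, Tagln (adjusted p = 0.0174) and Cnn1 (adjusted p = 0.0123) were called lower in Nrf2-/- cells at 1 h, and without the second isosmotic SFN library Cnn1 was called higher at 6 h with SFN (adjusted p = 0.00801). The accounts that follow leave both genes out, except from counts of genes called. Myl9, with 15 to 75 counts in WT libraries, is also measured coarsely. Tagln overlaps Pcsk7 and Gm48529 on the opposite strand and Vcl overlaps Ap3m1, and whether strand was used in counting is not given in the sources used here. Actb and Actg1 have nearly the same coding sequence, so reads common to both could have been split or dropped.

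**Figure D1:**
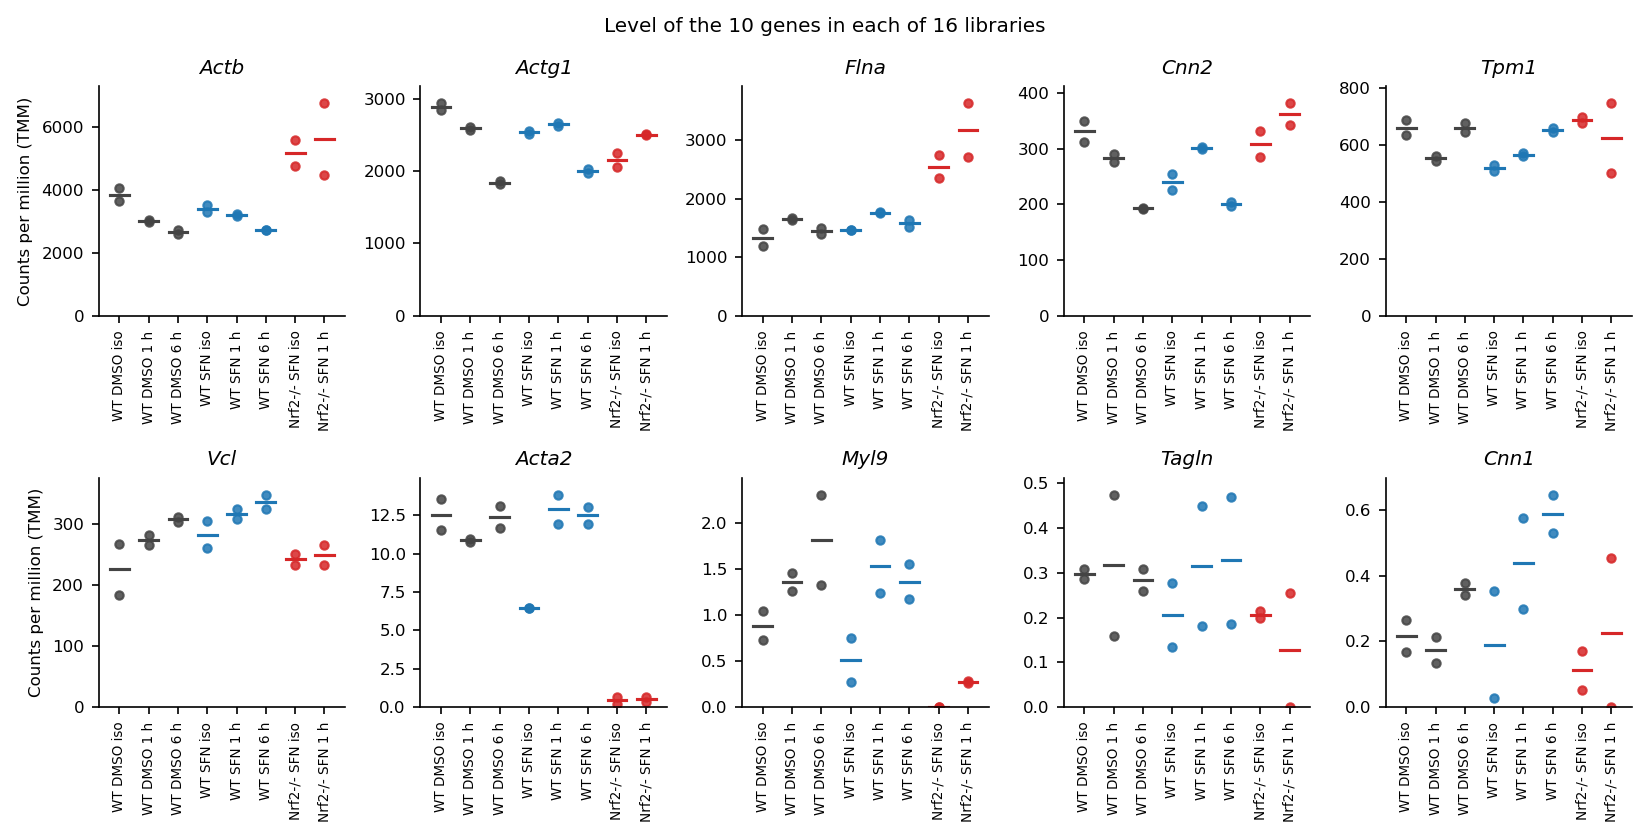
Level of each of the 10 genes in every library, in TMM-scaled CPM on a linear axis that starts at 0; points are libraries and the line is the mean of the 2, in grey for WT with DMSO, blue for WT with SFN and red for Nrf2-/- with SFN. Acta2 lies between 6.43 and 13.8 CPM in all WT libraries and at 0.692 CPM or less in all Nrf2-/- libraries, and Actg1 and Cnn2 reach their lowest WT levels at 6 h.

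The first question was how the genes respond to hyperosmotic stress without SFN. After 1 h, Actb, Tpm1 and Cnn2 were slightly lower and Flna slightly higher. Actb was at 3638 and 4049 CPM in isosmotic libraries and at 2963 and 3044 CPM after 1 h, with no overlap, a log2 fold change of -0.34 ± 0.058 (SE, adjusted p = 0.000307 in edgeR's quasi-likelihood test with Benjamini-Hochberg adjustment over all genes). Flna was at 1477 and 1188 CPM before and at 1641 and 1675 CPM after 1 h, a log2 fold change of 0.33 ± 0.079 (adjusted p = 0.00519). The 2 isosmotic Flna libraries differed by more than the 2 stressed ones, but all 4 values kept the order of the groups.

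Tpm1 fell by 0.24 ± 0.059 (adjusted p = 0.0059) and Cnn2 fell by 0.21 ± 0.069 (adjusted p = 0.0333), both on the log2 scale. In all, 1 gene rose and 3 fell among the 10, where 22.9% of all 18959 genes tested were called, 14.3% higher and 8.53% lower. Actg1 had a log2 fold change of -0.14 ± 0.051 and an adjusted p of 0.0562. When the 4 Nrf2-/- libraries were added to the fit, none of the 10 was called, and each of the 4 but Actb lost its call without 1 library or another. Flna was not called without the second isosmotic DMSO library (log2 fold change 0.18, adjusted p = 0.057), Tpm1 without the second 1 h library (-0.22, adjusted p = 0.0768) and Cnn2 when any 1 of 4 libraries was left out. Vcl, not called, had a log2 fold change of 0.29 that became 0.59 (adjusted p = 1.09e-05) without the first isosmotic DMSO library.

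At 6 h the cytoplasmic actins and Cnn2 had fallen. Actg1 was at 2837 and 2940 CPM in isosmotic DMSO cells and at 1824 and 1859 CPM after 6 h, 1.54-fold lower (log2 fold change -0.63 ± 0.051, adjusted p = 2.21e-09). Cnn2 went from 313 and 350 CPM to 192 and 193 CPM, 1.69-fold lower (-0.76 ± 0.070, adjusted p = 1.24e-08). Actb was at 2591 and 2732 CPM after 6 h, 1.42-fold lower than before stress (-0.51 ± 0.058, adjusted p = 3.02e-07). For all 3 genes every stressed library lay below every isosmotic one, and the call held under each alternative fit and each left-out library.

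Actb and Actg1 together made up 0.674% and 0.719% of all counts in isosmotic DMSO cells, and their share at 6 h was 0.402% to 0.430% over both pretreatments. Of the adhesion and contractile genes, Vcl was at 267 and 184 CPM before and at 311 and 303 CPM after 6 h, with no overlap (log2 fold change 0.47 ± 0.15, adjusted p = 0.0255). The size of the Vcl difference rested on the second isosmotic library, without which it was 0.21 (adjusted p = 0.0317), and without the first it was 0.77, while leaving out either 6 h library ended the call (adjusted p = 0.102 and 0.0787), as did scaling by total counts alone (0.26, adjusted p = 0.176). Myl9, with 44 and 33 counts before and 46 and 75 counts after 6 h, passed narrowly (2.08-fold higher, adjusted p = 0.0453) and did not pass with the replicate number as a block (adjusted p = 0.052) or without the second 6 h library (log2 fold change 0.60, adjusted p = 0.383), the second isosmotic library (0.81, adjusted p = 0.223) or any 1 of 5 other libraries.

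These 5 calls, 2 higher and 3 lower, stand against 57.6% of all genes called at 6 h, 30.5% higher and 27.1% lower, so the number of genes called says nothing particular about the 10. Between 1 h and 6 h, Actb, Actg1 and Cnn2 fell (by 0.17, 0.49 and 0.55 on the log2 scale) and Tpm1 rose by 0.26 ± 0.059 (adjusted p = 0.000761), with 54.4% of all genes called, 26.5% higher and 27.9% lower. With scaling by total counts alone the Tpm1 rise was 0.04 (adjusted p = 0.621), and with the Nrf2-/- libraries in the fit it was not called either (0.26, adjusted p = 0.145). The Actb call between the times was lost in 8 of 22 alternatives. Of these, 3 left out 1 library, either 1 h library or the first 6 h library. Its log2 fold change ranged from -0.40 with total counts alone to -0.10 with upper quartile scaling. Tpm1 was at 644 and 677 CPM at 6 h, within the isosmotic range of 633 to 687 CPM. Its log2 fold change at 6 h against isosmotic cells was 0.02, but with scaling by total counts alone, which moves the median of all genes from 0.07 to -0.13, it was -0.19 and called.

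In cells pretreated with SFN, 1 h of stress raised 4 of the genes and lowered none that passed the test, where 10.5% of all genes rose, 7.81% fell and 18.3% were called in either direction. Acta2 was at 6.43 CPM in both isosmotic SFN libraries and at 11.9 and 13.8 CPM after 1 h (log2 fold change 1.00 ± 0.14, adjusted p = 2.81e-05). Cnn2 went from 254 and 225 CPM to 299 and 304 CPM (0.33 ± 0.069, adjusted p = 0.00204). Flna went from 1469 and 1459 CPM to 1767 and 1748 CPM (0.26 ± 0.079, adjusted p = 0.0273).

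None of these 3 genes overlapped between the groups. Myl9 had 28 and 15 counts before and 70 and 50 counts after 1 h, 3.08-fold higher (log2 fold change 1.62 ± 0.46, adjusted p = 0.0187), with a log2 fold change of 2.45 without the first isosmotic SFN library, and was not called without the second (1.02, adjusted p = 0.221) or without the first 1 h library (1.32, adjusted p = 0.157). With the Nrf2-/- libraries in the fit, only Acta2 of the 4 was called (adjusted p = 0.0169). Flna was not called when any 1 of the 4 libraries compared was left out (adjusted p = 0.0768 to 0.141).

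At 6 h with SFN, 3 genes were lower and 3 higher than in isosmotic SFN cells, where 59.7% of all genes were called, 31.8% higher and 27.9% lower. Actg1 fell by 0.33 ± 0.051 on the log2 scale (adjusted p = 1.24e-05), Actb by 0.31 ± 0.058 (adjusted p = 0.000134) and Cnn2 by 0.25 ± 0.069 (adjusted p = 0.00452). Acta2 stayed high, at 11.9 and 13.0 CPM, and lay above the isosmotic SFN cells by 0.97 ± 0.14 on the log2 scale (adjusted p = 4.75e-06). Tpm1 rose by 0.34 ± 0.059 (adjusted p = 5.17e-05) and Myl9 was 2.76-fold higher (adjusted p = 0.0114), although the Myl9 log2 fold change was 2.29 without the first isosmotic SFN library, and Myl9 was not called without the second (0.86, adjusted p = 0.169) or without the second 6 h library (1.24, adjusted p = 0.0795). Of the 6, Actb, Cnn2 and Tpm1 were not called once the Nrf2-/- libraries entered the fit (adjusted p = 0.093, 0.0582 and 0.0602), and Cnn2 was not called without the first isosmotic SFN library (-0.16, adjusted p = 0.0739). Between 1 h and 6 h with SFN, the same 4 symbols were called as with DMSO, Actb, Actg1 and Cnn2 lower and Tpm1 higher, against 54.8% of all genes, 27.2% higher and 27.6% lower. There the Tpm1 call was lost with scaling by total counts alone, which took the log2 fold change from 0.22 to 0.0014 (adjusted p = 0.986), with the Nrf2-/- libraries in the fit (0.20, adjusted p = 0.253) and without the second 1 h library (adjusted p = 0.0515). The Tpm1 rise at 6 h over isosmotic SFN cells was also lost with total counts alone (0.09, adjusted p = 0.178). The Actb call between 1 h and 6 h with SFN was lost in 3 of 22 alternatives. Its log2 fold change ranged from -0.43 with total counts alone to -0.13 with upper quartile scaling.

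**Figure D2:**
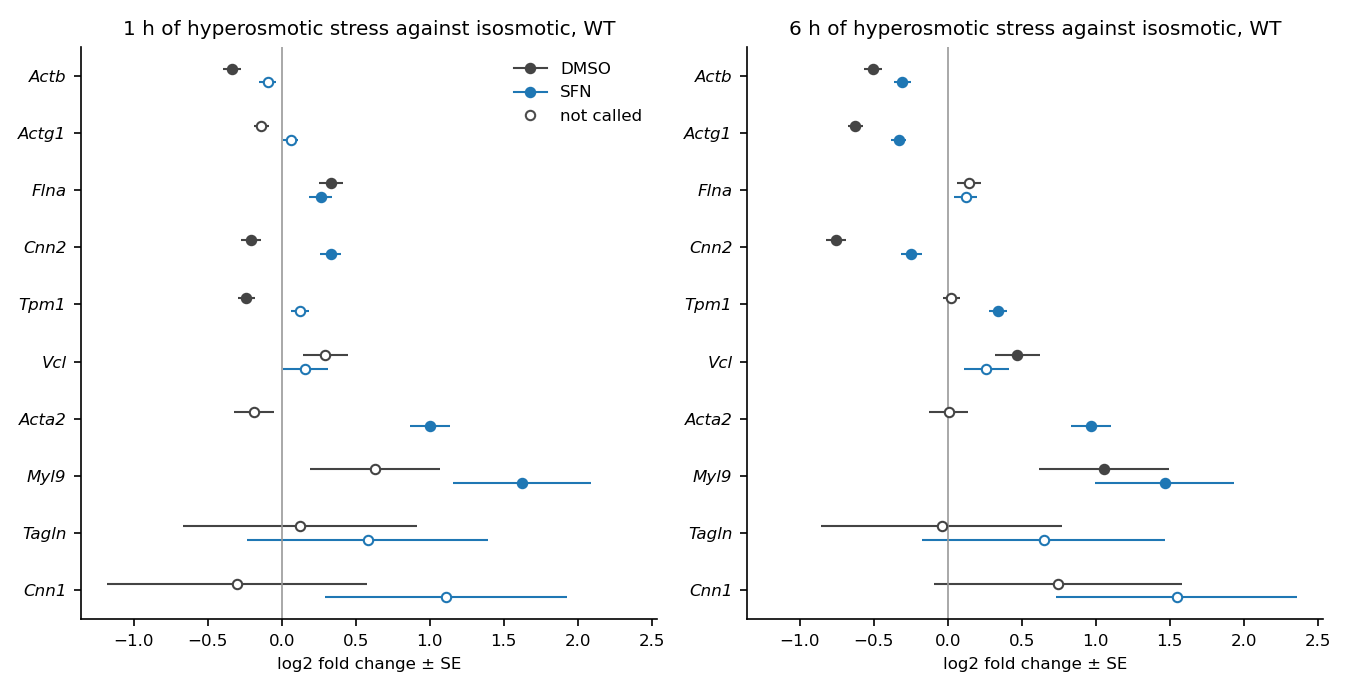
log2 fold change of each gene after 1 h (left) and 6 h (right) of hyperosmotic stress against isosmotic WT cells of the same pretreatment, DMSO in grey and SFN in blue; bars are the standard error of edgeR's fit, filled points have an adjusted p under 0.05 and open points do not. At 6 h Actb, Actg1 and Cnn2 lie below 0 with both pretreatments, while Acta2 lies near 0 with DMSO (0.01) and at 0.97 with SFN.

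The next question was what SFN alone does, before any stress. In isosmotic WT cells SFN lowered 4 of the 10 genes and raised none that passed the test, where 6.88% of all genes were lower, 8.28% higher and 15.2% were called in either direction. Acta2 was at 11.5 and 13.5 CPM with DMSO and at 6.43 CPM in both SFN libraries, 1.92-fold lower (log2 fold change -0.94 ± 0.14, adjusted p = 7.52e-05). Cnn2 was at 313 and 350 CPM with DMSO and at 254 and 225 CPM with SFN, 1.36-fold lower (-0.45 ± 0.069, adjusted p = 0.000162). The DMSO and SFN libraries did not overlap for either gene, and both calls held under each alternative fit and each left-out library.

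Tpm1 went from 633 and 687 CPM to 531 and 507 CPM (log2 fold change -0.33 ± 0.059, adjusted p = 0.000704). Actg1 changed little, from 2837 and 2940 CPM to 2552 and 2518 CPM (-0.17 ± 0.051, adjusted p = 0.0288). With only the 4 libraries compared or with the Nrf2-/- libraries added, Tpm1 (adjusted p = 0.0546 and 0.226) and Actg1 (adjusted p = 0.294 and 0.30) were not called. The Actg1 call was also lost when any 1 of 8 libraries was left out, with adjusted p up to 0.124. Actb had a log2 fold change of -0.16 ± 0.058 (adjusted p = 0.0736), Myl9 of -0.82 ± 0.48 (adjusted p = 0.273), Flna of 0.15 ± 0.079 and Vcl of 0.34 ± 0.15, none of them called. The Vcl value depends on 1 library, since it was 0.64 (adjusted p = 4.66e-06) without the first isosmotic DMSO library and 0.09 without the second.

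After stress no difference between SFN and DMSO passed the test among the 10. At 1 h, 0 of the 10 genes were called by edgeR's quasi-likelihood test, 0 had an unadjusted p under 0.05 and 0 were called by DESeq2, where 0.533% of all genes were called (0.411% higher, 0.121% lower). At 6 h the counts were 0 by edgeR, 1 at an unadjusted p under 0.05 (Actg1) and 0 by DESeq2, where 0.243% of all genes were called (0.19% higher, 0.0527% lower). For Acta2 the log2 difference at 1 h was 0.24, with an approximate 95% interval from -0.02 to 0.51, and at 6 h it was 0.02, from -0.24 to 0.28. Such intervals treat the estimate as normal and are somewhat narrow for so few libraries.

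The interval for Cnn2 was -0.04 to 0.23 at 1 h and -0.07 to 0.20 at 6 h, and that for Tpm1 was -0.08 to 0.15 and -0.13 to 0.10. None of these intervals reaches the isosmotic differences of -0.94, -0.45 and -0.33. When the test used only the 4 libraries at 1 h, which differ little within each group, Vcl (0.21, adjusted p = 0.000136), Actb (0.08, adjusted p = 0.0195) and Flna (0.08, adjusted p = 0.0325) were called higher with SFN. With the trend in gene length and GC content removed from each library, Actg1 was called at 6 h (0.17, adjusted p = 0.0189).

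**Figure D3:**
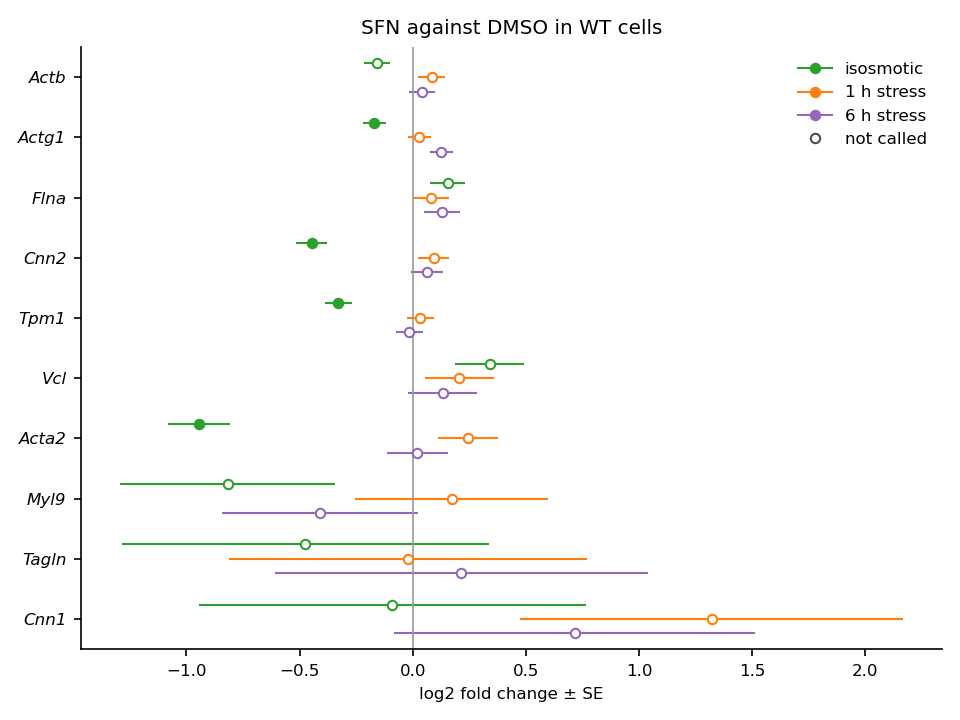
log2 fold change of SFN against DMSO in WT cells for each gene, isosmotic in green, after 1 h of stress in orange and after 6 h in purple; bars are standard errors, and filled points have an adjusted p under 0.05. The 4 filled points, all isosmotic and all below 0, are Actg1, Cnn2, Tpm1 and Acta2, and the other 2 conditions have no filled point.

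Whether the response to stress differs between the pretreatments was tested directly, by the interaction of SFN with stress. At 1 h the interaction was called for 3 of the 10 genes, all higher with SFN, where 3.09% of all genes were called, 1.92% higher and 1.17% lower. Acta2 had a log2 interaction of 1.19 ± 0.19 (adjusted p = 0.000635), Cnn2 of 0.54 ± 0.098 (adjusted p = 0.0022) and Tpm1 of 0.36 ± 0.083 (adjusted p = 0.0172). Each interaction equals the SFN difference under stress less that in isosmotic cells. For Acta2, Cnn2 and Tpm1 the differences at 1 h were 0.24, 0.09 and 0.03, none of them called. In isosmotic cells they were -0.94, -0.45 and -0.33, so most of each interaction came from the lower isosmotic level with SFN. At 6 h the same 3 genes and Actg1 were called, where 4.24% of all genes were called, 2.19% higher and 2.04% lower.

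The values at 6 h were 0.96 ± 0.19 for Acta2 (adjusted p = 0.00428), 0.51 ± 0.098 for Cnn2 (adjusted p = 0.00312), 0.32 ± 0.083 for Tpm1 (adjusted p = 0.0344) and 0.30 ± 0.072 for Actg1 (adjusted p = 0.0209). Both interactions use the same isosmotic libraries. The 2 isosmotic SFN libraries also serve the isosmotic SFN comparison and the stress responses with SFN, so these results are not independent. None of the 7 interactions was called when the Nrf2-/- libraries were added to the fit, with adjusted p from 0.177 to 0.697. With each library left out in turn, between 2 and 6 of the genes were called at each time. Acta2 and Cnn2 were called each time, the Tpm1 call at 1 h was lost when any 1 of the 4 libraries stressed for 1 h was left out, and at 6 h those of Tpm1 and Actg1 were lost without most of the libraries.

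The wider SRF programme was followed through lists of other genes. Of 40 other known MRTF-SRF targets, SFN in isosmotic cells lowered 14 and raised 3, against 6.88% of all genes lower and 8.28% higher, and their median log2 fold change was -0.33 against 0.00 over all genes. Myl12a, a regulatory light chain of non-muscle myosin, was at 236 and 264 CPM with DMSO and at 173 and 129 CPM with SFN (log2 fold change -0.71 ± 0.11, adjusted p = 0.000461). Tuft1 fell by 0.87 ± 0.081 (adjusted p = 2.02e-07), and the paxillin relative Tgfb1i1 fell by 1.37 ± 0.43 (adjusted p = 0.0353). Among those that rose were Fhl1, a LIM domain protein (0.77), and the integrin gene Itga5 (0.42).

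With SFN, 1 h of stress raised 17 of the 40 and lowered 2, against 10.5% of all genes higher and 7.81% lower, with a median of 0.22 against 0.02 over all genes. With DMSO it raised 5 and lowered 6, against 14.3% of all genes higher and 8.53% lower, with a median of 0.00. The muscle actins Actc1 and Actg2 were called after 1 h with SFN, from 0 and 0 counts to 8 and 12 for Actc1 and from 0 and 3 counts to 24 and 20 for Actg2, so both stayed very low. Between SFN and DMSO, 1 of the 40 was called at 1 h (Tns1, lower by 0.48) and 0 at 6 h, against 0.533% and 0.243% of all genes. The interaction was called for 8 at 1 h, 7 of them higher, against 3.09% of all genes. At 6 h it was called for 7, 6 of them higher, against 4.24% of all genes. The isosmotic SFN comparison, the stress responses with SFN and the interactions share the same 2 isosmotic SFN libraries, so they are not independent.

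The 13 tested early genes that SRF drives with TCFs, a list that includes Srf itself, were all lower with SFN in isosmotic cells, against 6.88% of all genes, with a median log2 fold change of -1.11. Among them Egr3 fell by 3.24 ± 0.60 (adjusted p = 0.000955), from 36 and 61 counts to 6 and 4. Egr2 fell by 2.51 ± 0.32 (adjusted p = 1.77e-05) and Fosb by 2.19 ± 0.17 (adjusted p = 9.51e-09), all zinc finger or AP-1 transcription factors of the immediate early response. After 1 h of stress with DMSO, 9 of the 13 were lower and 0 higher, against 8.53% and 14.3% of all genes, and Junb fell by 2.11 ± 0.087 (adjusted p = 1.42e-12). After 6 h with DMSO, 7 were higher and 4 lower, with a median of 0.76. With SFN 7 were higher and 2 lower at 1 h, against 10.5% and 7.81% of all genes. After 6 h with SFN 10 were higher and 2 lower, with a median of 2.14. At 6 h the share of all genes called was 57.6% with DMSO (30.5% higher, 27.1% lower) and 59.7% with SFN (31.8% higher, 27.9% lower).

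Srf was at 139 and 130 CPM in isosmotic DMSO cells, at 96.7 and 93.8 CPM with SFN (log2 fold change -0.48 ± 0.074, adjusted p = 0.000152), and at 63.7 and 67.4 CPM after 6 h with DMSO (-1.01 ± 0.075, adjusted p = 5.43e-10). Of the 10 regulators of SRF that were counted, SFN in isosmotic cells lowered Srf and Fhl2, an SRF cofactor, and raised Scai, a repressor of MRTF. The other 7 were not called, and over all genes 6.88% were lower and 8.28% higher. Stress for 6 h with DMSO raised 5 and lowered 3 of the 10, against 30.5% of all genes higher and 27.1% lower. Those lowered were Srf, Elk1 (-0.65 ± 0.18, adjusted p = 0.00506) and Mrtfb (-0.39 ± 0.11, adjusted p = 0.00332). Among those raised were Elk4 (1.00 ± 0.090, adjusted p = 1.01e-08), Fhl2 (1.13 ± 0.064, adjusted p = 1.02e-11) and Myocd (6.61 ± 1.07, adjusted p = 3.46e-05). Myocd had no counts in isosmotic SFN cells, after 1 h with DMSO or in either Nrf2-/- group. The size of its rise is thus poorly measured, with an SE of 1.07 on the log2 scale. Epithelial markers moved in parallel in isosmotic cells, where their summed level was 2819 and 3185 CPM with DMSO and 1958 and 1763 CPM with SFN, and their part in these results was not tested.

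**Figure D4:**
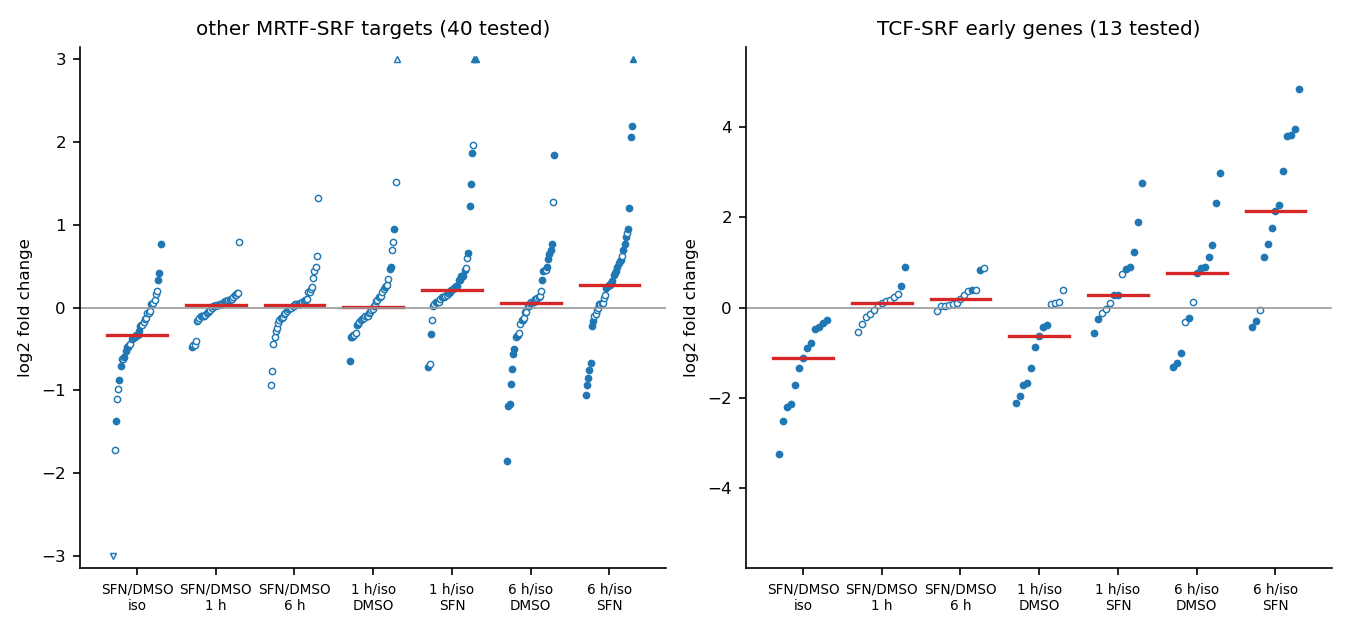
log2 fold change of each gene on 2 lists, 40 other MRTF-SRF targets (left) and 13 TCF-SRF early genes (right), in 7 comparisons of WT cells; each point is a gene, filled where the adjusted p is under 0.05, triangles mark values beyond the axis, and the red line is the list's median. In isosmotic cells SFN set the medians at -0.33 and -1.11, while at 1 h and 6 h the medians of SFN against DMSO are 0.03 and 0.03 on the left and 0.10 and 0.19 on the right.

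The last question was how Nrf2-/- cells compare with WT cells under the same SFN treatment. Isosmotic Nrf2-/- cells had 7 of the 10 genes called, 4 higher and 3 lower, where 34.1% of all genes were called, 15.7% higher and 18.4% lower. The smooth muscle genes Acta2 and Myl9 were far lower. Acta2 had 240 and 347 counts in isosmotic WT libraries with SFN and 8 and 25 counts in Nrf2-/- libraries, 14.1-fold lower (log2 fold change -3.81 ± 0.32, adjusted p = 3.8e-07). The size of this difference rests on both Nrf2-/- libraries, since the log2 fold change was -3.26 without the first and -4.81 without the second. Myl9 had 28 and 15 counts in WT and 0 in both Nrf2-/- libraries, at least 11.4-fold lower with a floor of 3 counts over the pair of libraries (adjusted p = 0.000391).

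Flna and Actb were higher instead. Flna was at 1469 and 1459 CPM in WT and at 2745 and 2350 CPM in Nrf2-/- cells, 1.74-fold higher (0.80 ± 0.14, adjusted p = 0.000359). Actb was at 3517 and 3281 CPM in WT and at 5576 and 4760 CPM in Nrf2-/- cells, 1.52-fold higher (0.60 ± 0.15, adjusted p = 0.00545). In both genes the Nrf2-/- values were above the WT values, although Actb was not called without the first isosmotic Nrf2-/- library (0.48, adjusted p = 0.0666).

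Actg1 did not follow Actb. It was at 2552 and 2518 CPM in WT and at 2248 and 2054 CPM in Nrf2-/- cells (log2 fold change -0.24 ± 0.084, adjusted p = 0.0417), a call that was lost with the replicate number as a block (adjusted p = 0.0569) or when any 1 of 14 libraries was left out. With the trend in length and GC content removed, its log2 fold change was -0.0037. The ratio of Actb to Actg1 counts was 1.15 to 1.47 in the 12 WT libraries and 1.77 to 2.71 in the 4 Nrf2-/- libraries, without overlap. Cnn2 (0.36 ± 0.11, adjusted p = 0.0154) and Tpm1 (0.40 ± 0.14, adjusted p = 0.0333) were higher in isosmotic Nrf2-/- cells. Cnn2 was not called without the second isosmotic WT library (0.27, adjusted p = 0.154) or the first Nrf2-/- one (0.24, adjusted p = 0.183), and Tpm1 was not called when any 1 of 12 libraries was left out, with adjusted p up to 0.152. Vcl had a log2 fold change of -0.22 ± 0.14 (adjusted p = 0.264).

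After 1 h of stress, 4 of the 10 were called between the genotypes, 2 in each direction, where 31.5% of all genes were called, 15.3% higher and 16.2% lower. Acta2 had 457 and 554 counts in WT and 12 and 24 in Nrf2-/- cells, 24.9-fold lower in the fit (-4.64 ± 0.32, adjusted p = 4.58e-08), with log2 fold changes of -4.20 without the first and -5.23 without the second stressed Nrf2-/- library. Myl9 had 70 and 50 counts in WT and 10 and 9 in Nrf2-/- cells, 5.61-fold lower (-2.49 ± 0.53, adjusted p = 0.00282). Flna (0.85 ± 0.14, adjusted p = 0.000236) and Actb (0.81 ± 0.15, adjusted p = 0.000711) were higher in Nrf2-/- cells.

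The 2 stressed Nrf2-/- libraries disagreed on the abundant genes. They held 4461 and 6746 CPM of Actb, 2716 and 3635 CPM of Flna and 747 and 503 CPM of Tpm1. With only the 4 libraries compared, Actb (adjusted p = 0.127) and Flna (adjusted p = 0.0819) were not called, and without the first stressed Nrf2-/- library 7 genes were. The calls of Acta2 and Myl9 held in both conditions under each left-out library and each alternative fit that tested them.

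In Nrf2-/- cells 1 h of stress gave 1 call among the 10 by edgeR, 4 at an unadjusted p under 0.05 (Actg1, Cnn2, Myl9 and Flna) and 2 by DESeq2, where 7.17% of all genes were called (4.36% higher, 2.81% lower). The log2 fold change was 0.32 ± 0.14 for Flna (adjusted p = 0.199), 0.23 ± 0.11 for Cnn2 (adjusted p = 0.23) and 0.22 ± 0.084 for Actg1 (adjusted p = 0.147), none of them called, and that of Flna in WT cells with SFN was 0.26. Myl9, the gene called, went from 0 counts in both libraries to 10 and 9, at least 6.55-fold higher (adjusted p = 0.0123). That call was lost without either isosmotic Nrf2-/- library (adjusted p = 0.0742 and 0.0908), whereas 5 genes were called without the first stressed one. Acta2 stayed at 0.227 and 0.671 CPM before and 0.34 and 0.692 CPM after stress.

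Whether stress acts differently in the 2 genotypes was tested by their interaction, and 0 of the 10 genes were called by edgeR, 1 had an unadjusted p under 0.05 (Myl9) and 0 were called by DESeq2, where 0.123% of all genes were called, 0.0615% in each direction. Without the first stressed Nrf2-/- library, Actb (0.48) and Tpm1 (-0.57) were called. The interaction of Acta2 was -0.82 with an approximate 95% interval from -1.77 to 0.13, an interval that holds both no difference and a difference as large as the WT rise of 1.00.

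**Figure D5:**
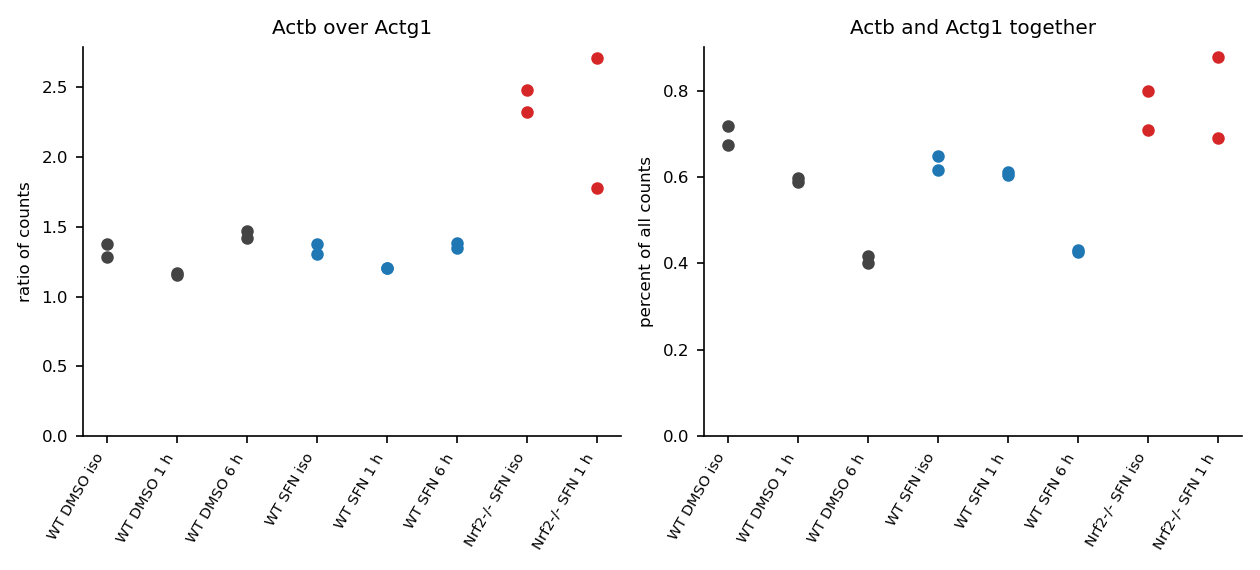
Ratio of Actb to Actg1 counts (left) and the percent of all counts that fell on both (right), by library, on axes from 0; WT with DMSO in grey, WT with SFN in blue and Nrf2-/- with SFN in red, with a point for each library. The 4 Nrf2-/- libraries lie at ratios of 1.77 to 2.71 and all WT libraries at 1.15 to 1.47, and the joint share is lowest in WT cells at 6 h, 0.402% to 0.430%.

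The regulators and the other targets of SRF also differed between the lines. Of the 10 regulators, 5 were higher in isosmotic Nrf2-/- cells and 0 lower, against 15.7% of all genes higher and 18.4% lower, among them Mrtfb (1.24 ± 0.21, adjusted p = 0.000412) and Elk3 (1.24 ± 0.11, adjusted p = 9.35e-07). Of the 40 other MRTF-SRF targets, 7 were higher and 13 lower, with a median of -0.16 against 0.00 over all genes. The intermediate filament gene Vim fell by 2.71 ± 0.15 (adjusted p = 3.9e-09), Synpo fell by 2.56 ± 0.21 (adjusted p = 3.47e-07) and Fhl1 rose by 3.36 ± 0.14 (adjusted p = 1.93e-10).

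The summed level of the 7 epithelial markers was 1958 and 1763 CPM in isosmotic WT cells with SFN and 3296 and 3101 CPM in Nrf2-/- cells. Of the 7, 5 were higher and 0 lower, with a median of 1.62, against 15.7% of all genes higher and 18.4% lower. The summed level of the 11 smooth muscle and fibroblast markers was 372 and 356 CPM in WT and 208 and 196 CPM in Nrf2-/- cells, and of the 8 that could be tested 2 were higher and 3 lower, against the same shares of all genes. That of the 7 collecting duct markers was 174 and 179 CPM against 64.2 and 61.4 CPM. Most of the WT sum was Pax2 alone, a transcription factor of the duct lineage, at 139 and 146 CPM against 27.5 and 26.2 CPM. The part of these differences between the lines in the results for Acta2 and Myl9 was not tested. In such bulk libraries, fewer cells that express a gene and less of its RNA per cell cannot be told apart.

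Across the 16 libraries, the genes with the pattern most like each of the 10 were found by Pearson's r of log2 CPM among genes with a mean of at least 10 CPM. The values are descriptions over n = 16 libraries that share their groups, and the 4 Nrf2-/- libraries weigh heavily in them. Acta2 was most like Ppbp (r = 0.992), Scin (0.991) and Irx3 (0.991), and Flna was most like Kdm5c (0.985), Ptpn21 (0.982) and Man2a1 (0.977). Actb was most like Eif3e (0.978), while Actg1 was most like Dhx34 (0.963) and Capzb (0.962), which encodes a subunit of the protein that caps actin filaments. Cnn2 was most like Klhdc8a (0.967), Tpm1 like Spint2 (0.926), Vcl like Bdp1 (0.917) and Myl9 like Hspa2 (0.924). The low genes had looser matches, at 0.755 for Tagln with Ss18 and 0.819 for Cnn1 with Gm13394.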

How the data were processed

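RNA-seq counts were analysed for 16 mIMCD3 libraries, 2 biological replicates in each of 8 groups taken from the sample labels. According to the paper's methods, Hisat2 was used for alignment to mm10, and the authors deposited raw counts per gene symbol from FeatureCounts, whereas the submitters' processing notes name Bowtie2, SAMtools and featureCounts. Versions, annotation and strand setting are not given in the sources used here. The extraction protocol of all 16 samples calls the cells primary, whereas their titles, sources and characteristics say mIMCD3, which is used here. Lines without a gene name were left out. No per-sample column was left unused.

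Counts were tested in R 4.3.3 with edgeR 4.0.16 (quasi-likelihood F-test, robust, TMM, filterByExpr) and Benjamini-Hochberg adjustment over all genes tested, called at an adjusted p under 0.05. Comparisons among WT groups were fitted on the 12 WT libraries (18959 genes) and those with Nrf2-/- groups on all 16 (19509 genes), without a replicate block. All 10 genes passed both filters. CPM values are scaled by TMM over all 16 libraries, and values per kilobase use union exon length from GENCODE M21 on GRCm38. The labels do not say that replicates came from separate cultures, so p-values measure only the spread between these libraries, which may be technical. With 2 libraries a group, an exact permutation test of 1 gene cannot go below p = 0.333.

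The alternatives were DESeq2 1.42.0, other scaling (RLE, upper quartile or total counts alone), other filters (none, or a minimum of 10 counts in each library), all 16 libraries, only the libraries compared, a replicate block and each library left out. Removal of the trend in length and GC content (known for 97.6% of genes tested) and leaving out the Nrf2-/- 1 h pair were added after the data were seen. All 10 genes are named throughout. Of the other genes on each list, up to 3 per comparison and direction with the largest change and an adjusted p under 0.05 could be named, with Nfe2l2 and the 3 genes most like each of the 10. Pax2, Krt8, Aqp2, Srf and the markers at 0 were named as markers or regulators after their values were seen. The 10 genes and all lists were chosen with earlier results of these data known. The scripts were tested on simulated data. Results for some genes are not reported here.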

Additional observations from a re-analysis of the deposited data

Results flagged for a closer look

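In all, 7 interactions of SFN with stress in WT cells drew a closer look, because the response to stress differed between the SFN and DMSO pretreatments by a test of that difference (edgeR's quasi-likelihood test with Benjamini-Hochberg adjustment). After 1 h the log2 difference between the 2 responses was 1.19 for Acta2, 0.54 for Cnn2 and 0.36 for Tpm1, each with a log2 fold change below 0 with DMSO (-0.19, -0.21 and -0.24) and above 0 with SFN (1.00, 0.33 and 0.12). After 6 h it was 0.96 for Acta2, 0.51 for Cnn2, 0.32 for Tpm1 and 0.30 for Actg1, also higher with SFN. Acta2 and Cnn2 kept their calls with each library left out, whereas none of the 7 was called when the Nrf2-/- libraries were in the fit (adjusted p from 0.177 to 0.697). The 2 times share their isosmotic libraries and are not independent. Between SFN and DMSO the log2 difference was -0.94 for Acta2, -0.45 for Cnn2 and -0.33 for Tpm1 in isosmotic cells. After 1 h it was 0.24, 0.09 and 0.03, none of them called, so most of each interaction came from the isosmotic level. In isosmotic cells the trend of the second over the first library with gene length was -0.08 (log2 per doubling) with DMSO and 0.08 with SFN. With the trend in length and GC content removed from each library, the interaction was 1.06 for Acta2 and 0.44 for Cnn2 at 1 h.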

How the results depend on the processing

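Over the 15 comparisons, 50 changes of single genes were called, and 21 of them kept direction and call under every setting other than a left-out library, 17 also with each library left out. Adding the 4 Nrf2-/- libraries to the WT fit mattered most. The number of the 10 genes called went from 4 to 0 (1 h, DMSO), 4 to 2 (6 h against 1 h, DMSO and SFN alike), 4 to 1 (1 h, SFN), 6 to 3 (6 h, SFN), 4 to 2 (SFN, isosmotic), 3 to 0 and 4 to 0 (interactions at 1 h and 6 h). With only the libraries compared it was 2 for SFN in isosmotic cells, 3 for SFN at 1 h, 2 for the 6 h interaction, 2 for genotype at 1 h and 0 for stress in Nrf2-/- cells. A minimum of 10 counts in every library removed Acta2 and Myl9 from the test and left 4 for genotype in isosmotic cells and 0 for stress in Nrf2-/- cells, where DESeq2 and no filter each gave 2. Removal of the length and GC trend gave 1 for SFN at 6 h. With total counts as the only scaling, Tpm1 at 6 h with DMSO reversed to -0.19. The cause of these differences was not tested, except where fewer genes were tested.

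When libraries were left out singly, calls ranged from 2 to 6 (1 h, DMSO), 3 to 6 (6 h, DMSO), 3 to 6 (6 h against 1 h, DMSO), 2 to 4 (1 h, SFN), 5 to 8 (6 h, SFN), 3 to 5 (6 h against 1 h, SFN), 3 to 7 (SFN, isosmotic), 0 to 0 (SFN at 1 h and 6 h), 2 to 6 (both interactions with SFN), 3 to 7 and 4 to 7 (genotype, isosmotic and 1 h), 0 to 5 (stress in Nrf2-/- cells) and 0 to 2 (genotype by stress). The highest counts came mostly without an isosmotic DMSO library or without the first stressed Nrf2-/- library.

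Same-numbered libraries deviated together by r of -0.20 to 0.33 over the pairs of groups, and the labels tie the numbers to no shared day, so they share only a number. The isosmotic SFN libraries are numbered 1 and 2 in their titles, as used here for the block and for first and second, but 2 and 3 in the count columns. With the replicate block, 6 h with DMSO had 4 genes called, 6 h against 1 h with DMSO 5 and genotype in isosmotic cells 6, through Myl9 (adjusted p = 0.052), Flna (adjusted p = 0.0269) and Actg1 (adjusted p = 0.0569), and it changed no other call. Depth limits Tagln, Cnn1 and Myl9, whose counts were at most 75.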

Other observations

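Genes that handle actin filaments and adhesions, from lists outside the 10, were also tested for a change with stress in WT cells. Of 29 focal adhesion genes, 18 rose and 4 fell after 6 h with DMSO and 17 rose and 4 fell with SFN, with medians of 0.34 and 0.60 against 0.07 and 0.10 over all genes, of which 30.5% rose and 27.1% fell with DMSO and 31.8% rose and 27.9% fell with SFN. The scaffold gene Nedd9 rose by 3.05 ± 0.16 with DMSO (adjusted p = 4.25e-12) and Tns3 by 1.79 ± 0.073 (adjusted p = 6.12e-14). Of 47 genes of actin dynamics, 11 rose and 19 fell after 6 h with DMSO, where 57.6% of all genes were called, among the latter the formin Daam1 (-0.98 ± 0.084, adjusted p = 4.54e-09) and profilin 2, Pfn2 (-0.97 ± 0.083, adjusted p = 4.64e-09), while Wasl, an activator of the Arp2/3 complex, rose by 1.22 ± 0.071 (adjusted p = 1.43e-11).

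SFN in isosmotic cells lowered 11 and raised 5 of the actin dynamics genes, against 6.88% of all genes lower and 8.28% higher, with the thymosin Tmsb4x, which holds monomeric actin, falling by 0.61 ± 0.096 (adjusted p = 0.000367). Leukocyte and endothelial markers summed to 1.98 to 5.24 CPM in WT libraries before stress or at 1 h and to 11.2 to 14.7 CPM at 6 h, and their part in the changes at 6 h was not tested.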
